A study of Mus musculus with 6 samples.

Results

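The mitochondrially encoded transcripts of mouse liver are the RNAs copied from the mitochondrial chromosome, and they were taken here as every row whose gene symbol starts with mt-. There were 18 such rows of 24927 in each deposited table: 13 mRNAs, 2 ribosomal RNAs (rRNAs) and 3 transfer RNAs (tRNAs). They stand for 18 of the 37 genes that the GENCODE M21 annotation places on the mitochondrial chromosome. RNA-seq was made from whole livers of C57BL/6 mice, labelled as male, aged 10 months and kept on chow. Of the 6 libraries, 3 were labelled wild type and 3 Cdkl3-/-, a knockout of a cyclin-dependent kinase-like gene that the study's design places in the liver. The labels do not say how the gene was deleted or whether each library came from its own mouse, so the tests speak only of the spread among the 6 libraries.

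The mammalian mitochondrial chromosome is a small circle without introns, transcribed from both strands into long precursors that cover many genes. tRNAs lie between most of the mRNAs and rRNAs, and cutting the precursors at the tRNAs frees the mature RNAs. The mRNAs encode subunits of complexes I, III, IV and V of oxidative phosphorylation, the rRNAs build the mitochondrial ribosome, and the levels of the mature RNAs differ through their own stability and tails even where they come from 1 precursor. All other proteins of the mitochondrion, including its RNA polymerase and nucleases, are made from nuclear genes. In a whole-liver library, fewer cells of a type, fewer mitochondria per cell and less RNA per mitochondrion cannot be told apart.

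The deposited values are FPKM, fragments divided by transcript length and by the fragments counted in the library, which divide out gene length. Genes carried on 1 mRNA still differed widely in FPKM, as described further on, so levels of different genes are compared only roughly here. Read totals recovered from the steps between low values ran from 20460615 to 48613853, and all 108 mitochondrial values fell within 0.0023 read of a whole number under the M21 exon lengths. Cdkl3 itself ranged from 0.0883 to 0.166 FPKM under the wild-type label and from 0.0761 to 0.195 FPKM under the knockout label (two-sided exact permutation p = 0.8), so it did not separate the labels; in the rest of the text, wild-type and knockout libraries are those so labelled. Xist, the RNA of the inactive X chromosome, read 192 to 292 FPKM in wild-type and 0.0125 to 0.0273 FPKM in knockout libraries, whereas the Y-linked Ddx3y read 0.0694 to 0.207 against 38.2 to 50.8. Eif2s3y, Uty and Kdm5d were split in the same direction as Ddx3y. The labelled genotype and these sex-linked genes therefore divide the libraries identically, and genotype and sex cannot be told apart in any comparison here. The hepatocyte markers, of which 6 of 8 had a usable row and none was at 0 throughout, summed to 1636 to 2298 FPKM under the wild-type label and 2715 to 3948 under the knockout label, although Apoa1, an abundant liver transcript, reached only 1.94 FPKM. Kidney markers (7 of 10 usable) summed to 0.432 to 1.47 FPKM in wild-type and 4.37 to 5280 in knockout libraries, nearly all of the highest value being the androgen-regulated Kap at 5264 FPKM in knockout replicate 1. Stellate cell markers (3 of 5 usable) summed to 19.8 to 30.7 FPKM under the knockout label against 70.3 to 123 under the wild-type label, and endothelial markers (5 of 5) to 4.60 to 5.32 against 8.09 to 8.77. The nuclear RNAs Malat1, Neat1 and Xist summed to 175 to 207 FPKM against 564 to 590, and without Xist to 175 to 207 against 292 to 372. None of these markers was at 0 throughout. Kupffer cell markers (5 of 6 usable, C1qb at 0 throughout) summed to 15.9 to 33.2 FPKM in wild-type and 12.0 to 54.4 in knockout libraries. Lymphocyte markers (3 of 5) summed to 2.21 to 2.70 against 0.598 to 6.40, so both sets overlapped. Biliary markers (2 of 4) and erythroid markers (3 of 4) were higher in all knockout libraries, at up to 2.53 and 1.57 FPKM. The part of the marker differences in the mitochondrial values was not tested.

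Neighbouring mitochondrial genes can share bases, which matters for how reads are assigned. The 3' end of mt-Nd4l runs into the 5' start of mt-Nd4 for 7 bases (GRCm38, chrM:10167-10173, plus strand), and mt-Atp8 runs into mt-Atp6 for 43 bases (chrM:7927-7969, plus strand), which is 21.1% of mt-Atp8. Each of these pairs is carried on 1 mRNA. The junctions are shown 5' to 3' with the shared bases in capitals, because the ratio of the partners is described further on.
mt-Nd4l end: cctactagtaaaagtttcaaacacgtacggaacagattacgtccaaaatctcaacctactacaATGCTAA
mt-Nd4 start: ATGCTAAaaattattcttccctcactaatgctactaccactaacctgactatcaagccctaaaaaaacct
mt-Atp8 end: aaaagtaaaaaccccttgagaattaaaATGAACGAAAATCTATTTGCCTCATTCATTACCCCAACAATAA
mt-Atp6 start: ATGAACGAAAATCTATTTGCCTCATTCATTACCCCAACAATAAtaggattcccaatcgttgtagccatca

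Several members also have near-identical copies in the nuclear genome, which limits what their rows measure. A run of 7 annotated pseudogenes lies on chromosome 1 (GRCm38, chr1:24611535-24616197), and in M21 transcripts the copies of mt-Co2, mt-Atp6, mt-Co3 and mt-Nd4l matched the mitochondrial gene at every aligned base, over 681, 678, 783 and 294 bases. Gm28439 matched mt-Nd4 over its first 876 of 1378 bases, Gm29216 matched 483 bases of mt-Co1 with 1 mismatch, and Gm28438 matched 345 bases of mt-Nd3 with 1 mismatch. That mismatch is T3C, counted from 1 at the start of mt-Nd3. A stretch of mt-Nd3 and of mt-Nd4l is shown beside its copy, with the mismatched base in capitals, to show how little a short read has to separate them; the stretches of mt-Nd4l and Gm10222 are the same.
mt-Nd3: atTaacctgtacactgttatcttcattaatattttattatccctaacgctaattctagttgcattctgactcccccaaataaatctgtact
Gm28438: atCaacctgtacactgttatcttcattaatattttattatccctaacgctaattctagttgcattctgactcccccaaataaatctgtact
mt-Nd4l: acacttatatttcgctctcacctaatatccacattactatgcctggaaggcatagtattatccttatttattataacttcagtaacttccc
Gm10222: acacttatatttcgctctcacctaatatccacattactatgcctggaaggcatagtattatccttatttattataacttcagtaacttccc

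The first question was how much of each library the mitochondrial transcripts took. Mitochondrial rows held 73.7%, 73.9% and 70.5% of all FPKM in the libraries labelled wild type. They held 69.5%, 70.1% and 63.2% in the libraries labelled knockout. Each knockout library was below each wild-type library, with means of 72.7% ± 1.91 and 67.6% ± 3.84 (SD, n = 3 each) and a difference of -5.09 percentage points. The exact permutation p was 0.1, the smallest that 3 against 3 libraries can give. Without knockout replicate 3, the lowest library and the one whose column header differs from its title, the difference was -2.88 points. The separation was lost when rRNAs and tRNAs were left out of both sums, with 69.5% to 73.3% in wild-type and 62.4% to 69.7% in knockout libraries (difference -5.12 points, exact permutation p = 0.2).

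Counted in reads instead of FPKM, the share no longer separated the groups. It was 46.2%, 46.2% and 41.0% of counted reads in the wild-type libraries and 46.0%, 46.3% and 42.9% in the knockout libraries. The means were 44.5% ± 3.01 and 45.1% ± 1.85 (SD, n = 3 each), a difference of 0.58 points in the other direction (exact permutation p = 0.8). The measures differ by construction, because FPKM weights each read by the inverse of gene length and the mitochondrial mRNAs are 204 to 1824 bases long against a median of 4476 bases over all tested genes. Summed mitochondrial FPKM overlapped between the groups, at 359918 to 412743 under the wild-type label and 355894 to 377837 under the knockout label. The FPKM of all other rows did not overlap and was higher under the knockout label, at 161066 to 207485 against 143143 to 150849. Brown fat and muscle markers (4 of 4 usable) summed to at most 0.138 FPKM in wild-type libraries and to 6.88 FPKM in knockout replicate 3, the library with the lowest mitochondrial share of FPKM; their part in that share was not tested.

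**Figure D1:**
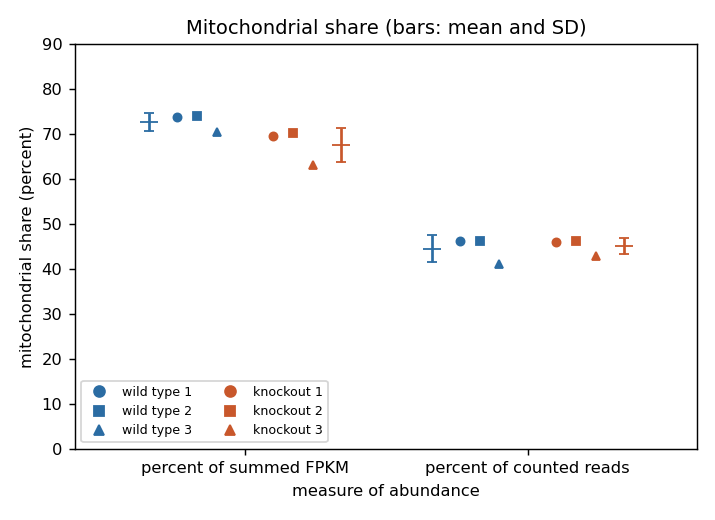
Mitochondrial share of each library in percent, as a share of summed FPKM on the left and of counted reads on the right, with 1 point per library and bars for the group mean and SD (n = 3). On the left the 3 knockout libraries lie below the 3 wild-type libraries; on the right the groups overlap.

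Messenger RNAs made up nearly all of the mitochondrial FPKM, at 95.3% to 97.8% per library, while the 2 rRNAs took 1.42% to 3.74% and the tRNAs 0.407% to 1.85%. Among mRNAs that share their precursors, levels ran from 25.5 FPKM for mt-Atp8 to 133762 FPKM for mt-Nd2. The 4 most abundant mRNAs were mt-Nd2, mt-Co1, mt-Nd1 and mt-Cytb, and together they held 85.9% to 88.7% of the mRNA FPKM in each library. The 7 consecutive mRNAs from mt-Co2 to mt-Nd4 held only 4.39% to 7.07%, and mt-Atp8 had the lowest mean level in both groups, at 25.5 to 129 FPKM across the libraries. Of these 7, all but mt-Atp8 have an annotated near-identical chromosome 1 copy of part or nearly all of the gene. mt-Atp8 lies between mt-Co2 and mt-Atp6, whose copies are neighbours on that chromosome too. Only annotated transcripts were searched, so a copy of mt-Atp8 between them would not have been found. Reads placed on the copies are not in these shares. Rows of the copy lengths held up to 65.5% of the pair's reads for mt-Atp6 and 77.0% for mt-Co3, but at most 6.42% for mt-Nd4. The part of the copies in the low shares was not tested.

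**Figure D2:**
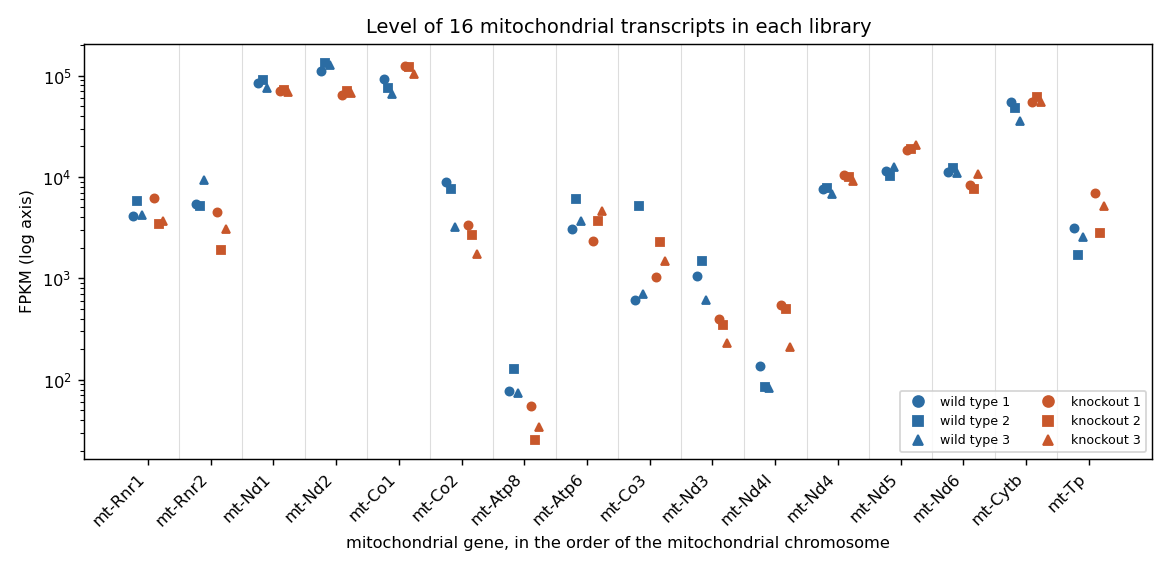
FPKM on a log axis of the 16 mitochondrial genes that were tested, in the order of the mitochondrial chromosome, with 1 point per library and the marker shape giving the replicate. mt-Nd2 and mt-Nd3 are lower and mt-Nd4l and mt-Nd5 higher in all 3 knockout libraries, while mt-Co3 spreads over a wide range in the wild-type libraries.

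The second question was the balance among the 13 mRNAs, described here as each gene's percent of their summed FPKM; shares sum to 100 within a library and are not independent. mt-Nd2, a subunit of complex I (NADH dehydrogenase), was the most abundant mRNA in every wild-type library, at 28.5%, 33.4% and 37.0% of the pool. It held 18.0%, 19.1% and 19.4% in the knockout libraries, and mt-Co1, the catalytic subunit of complex IV (cytochrome c oxidase), ranked first in each of them. mt-Co1 held 24.0%, 19.0% and 19.1% in the wild-type libraries and 34.4%, 32.6% and 30.2% in the knockout libraries. Neither gene's shares overlapped between the groups, with means of 33.0% ± 4.29 against 18.8% ± 0.721 for mt-Nd2 and 20.7% ± 2.83 against 32.4% ± 2.14 for mt-Co1 (SD, n = 3 each).

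The ratio of mt-Nd2 to mt-Co1 was accordingly above 1 in every wild-type library (1.19, 1.75 and 1.94) and below 1 in every knockout library (0.523, 0.586 and 0.643). mt-Nd1, a further complex I subunit, held 21.8%, 22.8% and 22.1% and then 19.7%, 19.3% and 20.2% of the pool. mt-Nd5, a complex I subunit encoded further along the same strand, held 2.97%, 2.53% and 3.65% against 5.15%, 5.06% and 5.99%. These 2 complex I genes thus lay on different sides of the comparison, and the ratio of mt-Nd5 to mt-Nd1 was 0.111 to 0.165 under the wild-type label and 0.261 to 0.296 under the knockout label. mt-Cytb, the only mitochondrial gene of complex III, held 10.5% to 14.3% against 15.3% to 16.6%. mt-Nd4 held 1.94% to 1.97% against 2.64% to 2.91%.

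By complex, the complex I mRNAs together held 58.5%, 64.1% and 68.2% of the pool in the wild-type libraries and 48.4%, 48.5% and 51.4% in the knockout libraries. Complex IV held 26.5%, 22.3% and 20.3% against 35.6%, 33.9% and 31.1%. Neither range overlapped, whereas complex V (ATP synthase) did, at 0.812% to 1.54% against 0.671% to 1.36%. In all, the shares of 9 of the 13 mRNAs did not overlap between the groups, 5 higher and 4 lower under the knockout label. Over all tested genes, the groups did not overlap in FPKM, a different measure, for 63.9%, so nothing particular to these mRNAs is read from that count. Turning the mean wild-type make-up into the mean knockout make-up would move 18.6% of the pool. The same measure was 3.09% to 10.1% for the 6 pairs of libraries with one label and 12.8% to 22.8% for the 9 pairs with different labels, so each pair across the labels differed more than each pair within them.

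**Figure D3:**
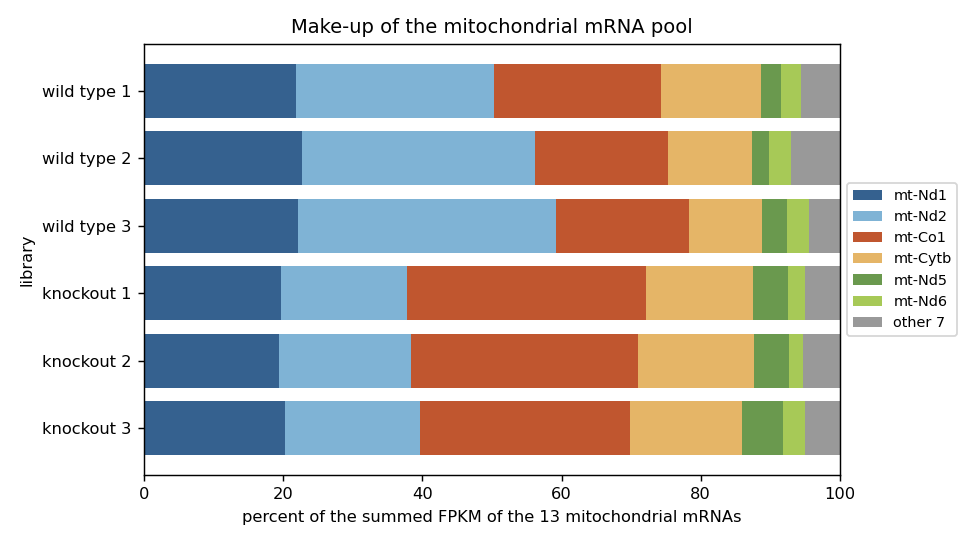
Make-up of the mitochondrial mRNA pool in each library, as percent of the summed FPKM of the 13 mRNAs. mt-Nd1, mt-Nd2, mt-Co1, mt-Cytb, mt-Nd5 and mt-Nd6 are in colour and the other 7 are summed in grey. The mt-Nd2 segment is wider in the 3 wild-type libraries and the mt-Co1 segment in the 3 knockout libraries.

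Each gene was then compared between the labels with limma on log2(FPKM + 1), fitted over 5651 genes with Benjamini-Hochberg adjustment. Over all genes in the fit, 33.7% of the tested genes were called higher and 20.5% lower in the knockout libraries at an adjusted p under 0.05. Of the 16 mitochondrial genes tested, 3 rose (mt-Nd4l, mt-Nd5 and mt-Co1), 5 fell (mt-Nd2, mt-Nd3, mt-Atp8, mt-Co2 and mt-Rnr2) and 8 did not pass. That is 8 called of 16, beside 54.2% of all tested genes. The groups did not overlap for 10 of the 16, with 4 higher and 6 lower, beside 63.9% of all tested genes, 38.0% higher and 25.9% lower. The median log2 difference was -0.18 over the 16 genes and -0.25 over the 13 mRNAs, beside 0.12 over all tested genes. Without knockout replicate 2 or replicate 3, 3 members were called lower instead of 5.

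Among the complex I mRNAs, mt-Nd4l (GRCm38, chrM:9877-10173) moved furthest upward. It read 137, 83.9 and 83.6 FPKM in the wild-type libraries and 543, 502 and 210 in the knockout libraries. The groups did not overlap, and mt-Nd4l rose by 1.95 on the log2 scale (SE 0.38, 95% interval 1.07 to 2.84, limma adjusted p = 0.0035), a ratio of means of 4.12. This gene alone kept its call under all 19 alternatives to the fit, with differences of 1.59 to 2.39. It rested on 508 to 5894 reads per library, and at 41.1% GC it was also the mRNA with the highest GC content.

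mt-Nd5 (chrM:11742-13565), which encodes one of the proton-pumping subunits, read 11532, 10126 and 12536 FPKM in the wild-type libraries and 18495, 18689 and 20599 in the knockout libraries. All knockout values exceeded all wild-type values, and the gene rose by 0.76 (SE 0.18, 95% interval 0.35 to 1.17, limma adjusted p = 0.0083). Scaling each library to its non-mitochondrial FPKM reduced the difference to 0.49 and ended the call (limma adjusted p = 0.11).

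mt-Nd2 (chrM:3914-4951) read 110545, 133762 and 127395 FPKM in the wild-type libraries and 64702, 70588 and 66657 in the knockout libraries. The groups were far apart relative to their spread, and mt-Nd2 fell by 0.88 on the log2 scale (SE 0.17, 95% interval -1.27 to -0.48, limma adjusted p = 0.0036), a ratio of 0.543. mt-Nd3 (chrM:9459-9806), a small complex I subunit, read 1061, 1493 and 609 FPKM against 393, 349 and 229. Its groups did not overlap either, and it fell by 1.64 (SE 0.35, 95% interval -2.46 to -0.83, limma adjusted p = 0.0054), a ratio of 0.307. Removing the trend with GC content over all genes ended both calls, with differences of -0.13 for mt-Nd2 (limma adjusted p = 0.61) and -0.71 for mt-Nd3 (limma adjusted p = 0.17).

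The other 3 complex I mRNAs did not pass the test although their groups did not overlap. mt-Nd1 read 84721, 91058 and 76024 FPKM against 70851, 71420 and 69573, a difference of -0.25 (95% interval -0.64 to 0.15, limma adjusted p = 0.25). mt-Nd4 read 7591, 7761 and 6767 against 10435, 9999 and 9078, a difference of 0.42 (95% interval 0.011 to 0.82, limma adjusted p = 0.077). mt-Nd6 (chrM:13552-14070, minus strand), the only mRNA encoded on the other strand, read 11121, 12238 and 11052 against 8387, 7582 and 10594, a difference of -0.39 (95% interval -0.84 to 0.066, limma adjusted p = 0.13). With the GC trend removed, mt-Nd4 was called higher at 1.17, while mt-Nd1 and mt-Nd6 changed sign to 0.35 and 0.47 without a call.

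Of the complex IV mRNAs, mt-Co1 (chrM:5328-6872) read 93039, 76218 and 65754 FPKM in the wild-type libraries and 123631, 120459 and 103730 in the knockout libraries. The groups did not overlap and mt-Co1 rose by 0.58 (SE 0.20, 95% interval 0.12 to 1.03, limma adjusted p = 0.038), but the call was kept under only 8 of the 19 alternatives. It was lost when wild-type replicate 2 (0.56), wild-type replicate 3 (0.46), knockout replicate 1 (0.53), knockout replicate 2 (0.55) or knockout replicate 3 (0.65) was left out. mt-Co2 (chrM:7013-7696), which carries the site that accepts electrons from cytochrome c, read 8930, 7631 and 3220 FPKM against 3375, 2649 and 1720. Wild-type replicate 3 lay below knockout replicate 1, so the groups overlapped, and mt-Co2 fell by 1.28 (SE 0.41, 95% interval -2.23 to -0.32, limma adjusted p = 0.031). Its call was lost without wild-type replicate 1 (-0.99), wild-type replicate 2 (-1.11), knockout replicate 2 (-1.32) or knockout replicate 3 (-1.01), and with the GC trend removed (-0.76).

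mt-Co3 had the widest spread of the 16 tested members within the wild-type libraries, at 618, 5191 and 702 FPKM in the wild-type libraries and 1028, 2260 and 1474 in the knockout libraries. The highest wild-type library held 8.40 times the lowest, and the difference of 0.20 (95% interval -1.91 to 2.31, limma adjusted p = 0.86) was within that spread. Leaving out wild-type replicate 2, the high library, gave 1.19 and a call (limma adjusted p = 0.032). mt-Cytb of complex III read 55380, 48445 and 36026 FPKM against 54901, 61508 and 55386, with overlapping groups and a difference of 0.32 (95% interval -0.17 to 0.80, limma adjusted p = 0.23).

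The complex V mRNAs share a transcript, yet only 1 of them passed. mt-Atp8 read 77.0, 129 and 73.1 FPKM in the wild-type libraries and 55.4, 25.5 and 33.8 in the knockout libraries, from 184 to 1275 reads. The groups did not overlap and mt-Atp8 fell by 1.28 (SE 0.32, 95% interval -2.02 to -0.54, limma adjusted p = 0.011). Removing the GC trend ended that call (-0.28, limma adjusted p = 0.49), and at 31.9% GC mt-Atp8 was the mRNA with the lowest GC content. mt-Atp6 read 3071, 6021 and 3646 against 2355, 3644 and 4628, with overlapping groups and a difference of -0.25 (95% interval -1.02 to 0.51, limma adjusted p = 0.54). The difference between these 2 genes' changes was not tested.

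**Figure D4:**
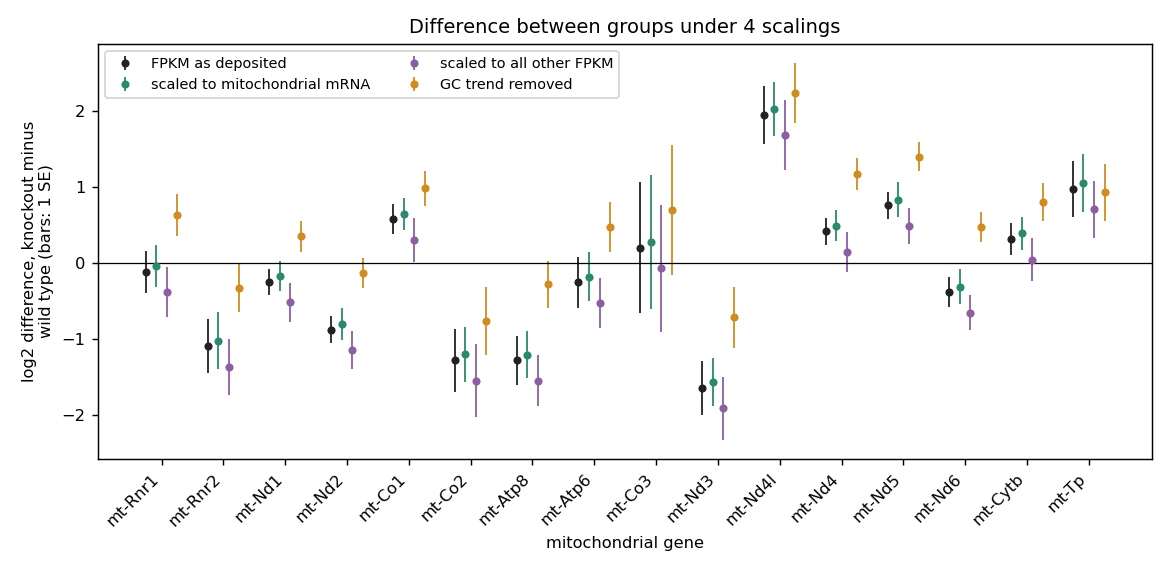
Log2 difference in FPKM, knockout minus wild type, of the 16 tested mitochondrial genes with bars of 1 SE, for FPKM as deposited and under 3 other scalings. mt-Nd4l ranges from 1.69 to 2.24 over these scalings, whereas mt-Nd2 moves from -0.88 to -0.13 once the trend with GC content is removed.

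GC content separated these genes from most others. Of the 13 mRNAs, 12 had under 40% GC, beside a median of 44.6% over the tested genes. Among all 826 tested genes under 40% GC, 40.0% were called lower and 11.7% higher, with a median log2 difference of -0.42. With the GC trend removed, 5 members were called higher (mt-Co1, mt-Cytb, mt-Nd4, mt-Nd4l and mt-Nd5) and the 5 genes called lower before no longer passed, beside 32.4% higher and 18.2% lower of all genes in that fit. With GC and length removed together, 4 were higher and 1, mt-Co2, lower, beside 34.4% and 17.5% of all genes in that fit.

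Scaling moved the split of calls too. Scaled to the non-mitochondrial FPKM of each library, 1 member (mt-Nd4l) was called higher and 6 lower, beside 24.2% higher and 29.0% lower of all genes. Scaled to the mitochondrial mRNA itself, 4 were higher, mt-Tp being the addition, and 5 lower, beside 35.0% and 16.0% of all genes. Median centring gave 1 higher (mt-Nd4l) and 7 lower, beside 25.5% and 33.4%. Under these 3 scalings mt-Nd2, mt-Nd3, mt-Atp8, mt-Co2 and mt-Rnr2 stayed on the lower side.

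Partners on 1 precursor were compared as ratios. mt-Nd4l to mt-Nd4 was 0.0181, 0.0108 and 0.0124 in the wild-type libraries and 0.0520, 0.0502 and 0.0232 in the knockout libraries, with no overlap. mt-Atp8 to mt-Atp6 was 0.0251, 0.0214 and 0.020 against 0.0235, 0.0070 and 0.0073. There knockout replicate 1 lay within the wild-type range and the other two far below it. With the reads of the copy-length rows described further on added to the members, mt-Nd4l to mt-Nd4 ran from 0.0180 to 0.0273 and from 0.0321 to 0.0653, still without overlap. mt-Atp8 to mt-Atp6 then ran from 0.0069 to 0.0098 and from 0.0038 to 0.0091, again overlapping. No copy of mt-Atp8 was found among annotated transcripts, so reads were added to mt-Atp6 alone and this ratio could only fall. As deposited, mt-Nd4l and mt-Atp8 stayed below 0.1 of the FPKM of the gene with which they share an mRNA. With the reads added on both sides, mt-Nd4l stayed below 0.1 of mt-Nd4 too. The strand balance, mt-Nd6 as a percent of the 12 other mRNAs, was 2.95%, 3.15% and 3.32% against 2.39%, 2.09% and 3.18%, and overlapped through knockout replicate 3.

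The rRNA genes lie near the main promoter of their strand and their products are abundant in total mitochondrial RNA, but here they lay below the leading mRNAs. mt-Rnr1, the small-subunit rRNA, read 4152, 5735 and 4215 FPKM in the wild-type libraries and 6242, 3430 and 3701 in the knockout libraries, with overlapping groups (difference -0.11, 95% interval -0.75 to 0.52, limma adjusted p = 0.75). mt-Rnr2 (chrM:1094-2675), the large-subunit rRNA, read 5365, 5172 and 9245 against 4481, 1919 and 3054. Its groups did not overlap and it fell by 1.10 (SE 0.36, 95% interval -1.91 to -0.28, limma adjusted p = 0.031). The call was lost without wild-type replicate 3 (-0.83), knockout replicate 2 (-0.78) or knockout replicate 3 (-1.12), and with the GC trend removed (-0.32). The ratio of mt-Rnr1 to mt-Rnr2 was 0.774, 1.11 and 0.456 in wild-type and 1.39, 1.79 and 1.21 in knockout libraries, so all knockout values were the higher ones. Both rRNAs together came to 1.45% to 3.91% of the mitochondrial mRNA FPKM.

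Of the 3 tRNA rows, only mt-Tp, the proline tRNA on the strand of mt-Nd6, was well covered, by 3500 to 11452 reads. Its reference sequence is given beside that of mt-Tl2, a leucine tRNA, because rows as short as 67 and 71 bases turn few reads into many FPKM.
mt-Tp: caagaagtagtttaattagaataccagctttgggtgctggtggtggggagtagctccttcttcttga
mt-Tl2: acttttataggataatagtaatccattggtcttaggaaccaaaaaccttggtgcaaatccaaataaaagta
mt-Tp read 3123, 1681 and 2553 FPKM in the wild-type libraries and 6968, 2815 and 5228 in the knockout libraries. The groups overlapped through knockout replicate 2, and the difference of 0.98 (95% interval 0.13 to 1.83) did not pass (limma adjusted p = 0.053). It passed without knockout replicate 2 (1.35) or wild-type replicate 1 (1.18). mt-Tl2 had 27 reads in wild-type replicate 3, or 18.6 FPKM (exact Poisson 95% interval 12.2 to 27.0, counting error only), and is listed at 0 in the other 5 libraries. mt-Tc, the cysteine tRNA, is listed at 0 in all 6 libraries, where a limit of 3 reads corresponds to 0.935 to 2.22 FPKM. Neither of these rows was tested.

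Reads on the nuclear copies were then set beside the members. The symbols of the chromosome 1 rows name genes whose lengths give no whole reads, so the copies were looked for by length: 50 rows of that block reached 50 FPKM, and 7 of them gave whole reads in all 6 libraries at the exon lengths of the 7 copies. Up to 3 other genes of chromosome 1 share such a length, so the assignment is by length only. The row of the length of the mt-Atp6 copy read 4770, 8159 and 6963 FPKM in wild-type and 3746, 3125 and 2258 in knockout libraries, and held 57.4% to 65.5% and 32.7% to 61.3% of the reads of the pair. The row of the length of the mt-Co2 copy read 3920, 4755 and 2164 FPKM against 839, 1062 and 692. In wild-type libraries it held 30.4% to 40.1% of the pair's reads and in knockout libraries 19.8% to 28.6%.

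These rows thus took a large part of the reads of some pairs and little of others. The mt-Co3 pair was the least even, with 47.9%, 14.5% and 77.0% of its reads on the copy-length row in the wild-type libraries, the lowest share being in the library where mt-Co3 itself was highest. The row for the mt-Nd4l copy read 78.3, 63.6 and 53.4 FPKM against 155, 121 and 91.0, higher in all knockout libraries like mt-Nd4l itself, and held 36.1% to 42.9% and then 19.2% to 30.0% of the pair's reads. The shares were 16.5% to 26.0% for mt-Nd3, 2.10% to 6.42% for mt-Nd4 and at most 0.221% for mt-Co1.

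**Figure D5:**
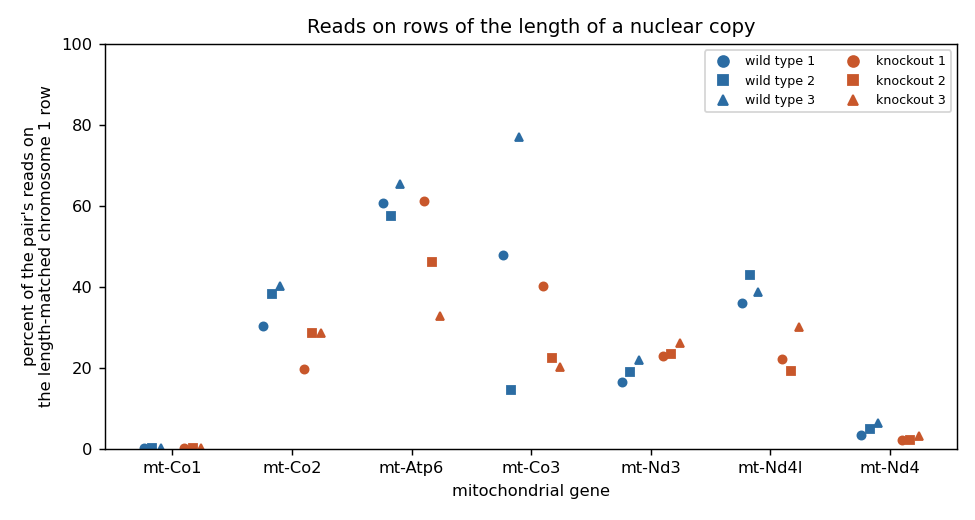
Percent of the reads of each pair that lay on the chromosome 1 row with the exon length of the nuclear copy, for 7 mitochondrial genes, with 1 point per library. The mt-Atp6 and mt-Co3 pairs reach 65.5% and 77.0%, and the mt-Co1 pair stays near 0.

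Adding the reads of these rows back to the members, a calculation chosen after the data were seen, left the calls of mt-Co2, mt-Nd3 and mt-Nd4l in place at -1.50, -1.55 and 1.63. The summed mt-Nd4l pair, per mt-Nd4l length, came to 215, 147 and 136 FPKM against 697, 621 and 301. mt-Atp6 came to 7820, 14144 and 10578 FPKM against 6085, 6756 and 6876, no longer overlapping, and was called lower at -0.68 (limma adjusted p = 0.043). mt-Co3 came to 1186, 6074 and 3047 against 1721, 2914 and 1847, with a difference of -0.41 and no call.

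More diverged copies on chromosome 2 have usable symbols. Gm13340, which covers all of mt-Co1 with 37 mismatches, read 67.4, 65.7 and 67.5 FPKM in wild-type and 89.2, 71.2 and 54.8 in knockout libraries, far below mt-Co1. Gm13341, a copy of mt-Co2 with 95.9% identity, read 28.3, 59.1 and 46.5 against 24.6, 12.0 and 19.8. Gm13339, which matches the last 510 bases of mt-Nd2 at 96.7%, read 63.8, 130 and 76.1 against 20.8, 21.5 and 19.8, lower in all knockout libraries like mt-Nd2. mt-Nd1 and both rRNAs had no copy of at least 100 bases at 90% identity in the M21 transcripts.

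Nuclear genes that make, process and translate mitochondrial RNA were read from 5 lists. A gene entered the fit with at least 1 FPKM in 3 libraries, so a low gene could enter through one group alone, and the counts below describe only genes that entered. Over all tested genes, 33.7% were called higher and 20.5% lower, and nothing particular to a list is read from its counts. Of 19 genes of mitochondrial transcription and replication, 8 were tested, 3 were called higher and 1 lower, with a median log2 difference of 0.051 (-0.23 with median centring), beside 0.12 over all tested genes. Tfam, which packages the chromosome and helps to start transcription, rose from 4.91 ± 1.03 to 12.1 ± 0.909 FPKM (mean ± SD, n = 3; difference 1.16, SE 0.18, limma adjusted p = 0.0012). Mterf2 rose from 1.28 to 3.34 FPKM. Ssbp1, the mitochondrial single-strand binding protein, was also called, at 0.809 against 2.01 FPKM, but reached 1 FPKM in knockout libraries only. Mterf3 fell from 17.9 to 12.3 FPKM. Polrmt, the RNA polymerase that transcribes the mitochondrial chromosome in every cell, is listed at 0 in all 6 libraries. Top1mt and Mrpl12 of the same list are also at 0 in all 6.

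Of 31 processing and decay genes, 16 were tested, with 7 called higher and 4 lower and a median of 0.30 (-0.11 when scaled to non-mitochondrial FPKM). Of the 7 higher calls, 3 were of genes below 1 FPKM in at least 1 wild-type library, which entered the fit through the knockout libraries. Lrpprc, which binds and stabilises mitochondrial mRNAs, was 1 of these 3, at 0.728 FPKM in wild-type replicate 2. It read 1.16 ± 0.380 against 4.38 ± 0.636 FPKM (difference 1.33, SE 0.19, limma adjusted p = 0.00081). Rexo2, a nuclease for very short RNAs, rose from 1.35 to 8.04, and Grsf1, an RNA granule protein, from 22.3 to 44.3 FPKM. Hsd17b10, a subunit of the enzyme that cuts at the 5' ends of the tRNAs, read 0.0570 against 2.39 FPKM; it entered the fit through the knockout libraries only, so the filter fixed its direction. The 4 genes that fell, named after their values were seen, were Trnt1, which adds the CCA end to tRNAs, Ptcd3, Nsun3 and the poly(A) polymerase Mtpap. Trnt1 read 25.6 ± 4.03 against 12.0 ± 1.46 FPKM and Mtpap 5.43 ± 0.324 against 3.69 ± 0.427.

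Of 21 genes for charging mitochondrial tRNAs, 5 were tested, 2 were called higher, 1 of them (Gatc) below 1 FPKM in at least 1 wild-type library, and the other three did not pass, with a median of 0.45 (0.17 without a filter or with median centring), beside 0.12 over all tested genes. Gatc read 0.684 ± 0.436 against 6.75 ± 1.70 FPKM and Yars2 2.55 ± 0.388 against 4.5 ± 0.825. Of 16 translation and tRNA modification genes, 5 were tested, 4 were called higher and 1, Mto1, did not pass, with a median of 0.61 (0.21 with a pseudocount of 10). Of those 4 calls, 3 were of genes below 1 FPKM in at least 1 wild-type library, which entered the fit through the knockout libraries. Gfm1, the elongation factor G of mitochondria, read 0.978 ± 0.568 against 7.11 ± 1.2 FPKM, and Mtif2, the initiation factor, 13.6 ± 1.32 against 21.4 ± 2.62. Mtrf1 read 0.595 against 2.32 FPKM and Gfm2 0.578 against 1.09 FPKM, and neither reached 1 FPKM in a wild-type library.

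Of 13 regulators of mitochondrial biogenesis, 9 were tested, with 3 called higher (Tfam, Gabpb1 and Ppara), 4 lower (Ppargc1a, Nfe2l2, Sirt1 and Yy1) and a median of -0.46, beside 0.12 over all tested genes. Of the 3 higher calls, 2 (Gabpb1 and Ppara) were of genes below 1 FPKM in at least 1 wild-type library. The median was 0.0019 without a filter and -0.10 with the GC and length trends removed. Ppargc1a, the coactivator PGC-1alpha, read 8.18, 9.67 and 6.89 FPKM in the wild-type libraries and 4.16, 2.92 and 4.64 in the knockout libraries. It fell by 0.92 (SE 0.20, limma adjusted p = 0.0059), with no overlap. Nfe2l2 read 48.7 ± 8.24 against 21.7 ± 5.67 FPKM and fell by 1.14 (SE 0.22, limma adjusted p = 0.0034). Gabpb1 read 0.913 ± 0.249 against 1.85 ± 0.195 FPKM. Ppargc1a, a coactivator known to promote expression of Tfam, and Tfam itself thus moved in opposite directions between the labels.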

How the data were processed

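FPKM values were deposited by the authors as 1 table per library, per the file headers; HISAT2 and the GRCm39 genome are named per the submitters' processing notes, while the counting tool and annotation, as well as all versions, are not named there. The deposited identifiers and symbols name different genes: under GENCODE M21 exon lengths (GRCm38) 98.95% of low values were whole reads by symbol (tolerance 0.15 read) and 30.56% by identifier, near the 30% that chance gives, so symbols were used. In the first 1787 rows (chromosome 1) neither gave whole reads, and these rows, 127 without a symbol and 227 with a repeated symbol were left out of tests, leaving 22794 rows. The column header of 1 library, knockout replicate 3, differs from its title, and the library was kept under its label. Depths came from the steps between low values of non-mitochondrial rows. limma 3.58.1 (R 4.3.3; trend and robust moderation) was run on log2(FPKM + 1), which understates changes of low genes, for the 5651 genes that reached 1 FPKM in 3 or more libraries, with Benjamini-Hochberg adjustment and a threshold of 0.05. On simulated data it found 47% of 100 genes with a log2 change of 1 and 90% of 100 with a change of 2, and called 3 unchanged genes. Shares were compared by two-sided exact permutation tests (scipy 1.17.1). Copies were found with blastn 2.17.0 in M21 transcripts, with sequences matched by symbol. Every member with at least 1 FPKM in 1 library was named, and from each list up to 4 called genes with the smallest adjusted p. The members and lists were chosen with earlier results of these data known. Alternatives covered pseudocount, filter, scaling, GC and length trends, threshold, moderation, replicate block and each library left out.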

Additional observations from a re-analysis of the deposited data

How the results depend on the processing

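Across 19 alternatives to the fit, the 16 tested members gave 240 results that kept their direction and side of the threshold, 34 that lost a call, 13 that gained one and 17 that changed sign. mt-Nd4l alone kept its call in all 19. Every sign change was in a member without a call: mt-Co3 turned to -0.080 with median centring, -0.070 scaled to non-mitochondrial FPKM and -0.41 with the copy reads added, and ran from -0.34 to 1.19 with each library left out. mt-Rnr1 turned to 0.63 with the GC trend removed, 0.34 with GC and length removed, and ran from -0.38 to 0.049 with each library left out. mt-Atp6 turned to 0.47 and 0.11 in the same fits, and ran from -0.47 to 0.028. mt-Nd6 turned to 0.47 and 0.21 and mt-Nd1 to 0.35 with the GC trend removed. The difference in mitochondrial share was 0.58 points in reads and -6.35 to -2.88 with each library left out.

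Members called lower numbered 3 without a filter, 0 with the GC trend removed, 1 with GC and length removed, 2 at a threshold of 0.01, and 3 to 5 with each library left out. Members called higher numbered 1 with median centring, 1 scaled to non-mitochondrial FPKM, 5 with the GC trend removed and 2 to 4 with each library left out. The share called over all genes differed between fits too, and is given further up only for the main, scaling and trend fits. Nothing particular to the members is read from these counts. The median of the tRNA charging list was 0.63 with a pseudocount of 0.1, 0.18 with 10, 0.17 without a filter, 0.17 with median centring and 0.27 scaled to non-mitochondrial FPKM; with a filter of 10 FPKM no gene of it was left. The translation list gave 0.83, 0.21, 0.33 with median centring and 0.87 scaled to mitochondrial mRNA. The processing list gave 0.12 with a pseudocount of 10, 0.11 without a filter, 0.054 with a filter of 10 FPKM, 0.023 with median centring, -0.11 scaled to non-mitochondrial FPKM, and 0.58 and 0.53 with the GC trend and with both trends removed. The biogenesis list gave -0.29, 0.0019, -0.69, -0.74, -0.83, -0.20 and -0.10 in the same order. The transcription list gave 0.33 with a filter of 10 FPKM, -0.23 with median centring and 0.38 with the GC trend removed. With each library left out the medians ran from -0.074 to 0.26 (transcription), 0.051 to 0.38 (processing), 0.39 to 0.55 (tRNA charging), 0.52 to 0.88 (translation) and -0.68 to -0.39 (biogenesis). The causes of these shifts were not tested.

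Over all tested genes, same-numbered libraries did not deviate together (r of -0.048, -0.10 and 0.18 for numbers 1, 2 and 3). Pairing of the members alone was not tested. With the replicate number as a replicate block, 4 members were called higher, mt-Tp being added at 0.98, and 5 lower. That block lowered the SE of mt-Co2 from 0.41 to 0.22, of mt-Co3 from 0.86 to 0.48 and of mt-Tp from 0.37 to 0.21. It raised the SE of mt-Rnr1, mt-Nd1, mt-Atp8, mt-Nd4, mt-Nd5 and mt-Nd6. At 3 libraries a group, the share test cannot reach a p below 0.1.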
